A study of Rattus norvegicus with 120 samples.

Results

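Transforming growth factor beta (TGF-beta) pathway genes were followed in the kidneys of 120 rats given calcineurin inhibitors, rapamycin or vehicle. The set comprised 10 genes: the ligands Tgfb1 and Tgfb2, the receptors Tgfbr1 and Tgfbr2, the signal transducer Smad3 and its inhibitor Smad7, the induced genes Ccn2, Thbs1 and Tgfbi, and the related growth factor Bmp7. A gene was measured where the array's annotation gave it a probe set that named no other gene, and the probe set with the highest mean over all arrays was used. This held for 8 of the 10 genes, among 14217 genes on the array. Tgfbr2 and Thbs1 had no such probe set and have no values here. All 8 measured genes passed the filter that left out the dimmest 25% of genes, which kept 10663 genes.

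The animals were male Sprague-Dawley rats, 5 to 7 weeks old before treatment, with no genetic modification named in the labels. They were injected intraperitoneally once a day with olive oil (vehicle), cyclosporine (CsA) at 2.5 or 25 mg/kg, tacrolimus (FK506) at 0.6 or 6 mg/kg, or rapamycin (Rapa) at 1 or 10 mg/kg. Rats received 1, 7, 14 or 28 doses and were killed 24 hours later, which gives the days 1, 7, 14 and 28 named below and 28 groups. Groups were of 4 rats up to day 14, with the single exception of FK506 6 mg/kg on that day, which had 3. On day 28 the groups were larger for all but CsA 25 mg/kg (4 rats): 6 rats for FK506 0.6 mg/kg and for either Rapa dose, and 5 for the remaining 3 groups. The 3 drugs and the vehicle were given to rats of the same strain and age, and each rat was killed at 1 time only. The doses of the different drugs were chosen separately, so a difference between drugs holds for these doses.

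TGF-beta is secreted as an inactive complex and, once released, binds a type II receptor that recruits and activates the type I receptor encoded by Tgfbr1. The activated receptor phosphorylates Smad2 and Smad3, which enter the nucleus and induce genes of the extracellular matrix, while Smad7 shuts the receptor down. In kidney the pathway is known for driving scarring, and Bmp7, made by tubule cells and podocytes, is known for opposing it. CsA and FK506 inhibit calcineurin, the phosphatase that activates NFAT transcription factors, and Rapa inhibits the kinase mTOR.

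Levels are log2(intensity + 16) after quantile normalization, and changes are differences of these levels with their standard error (SE). A gene was called changed at an adjusted p under 0.05 in limma, adjusted over all genes tested. Kidney markers stood high on all arrays: Umod, the thick ascending limb's secreted protein, had levels of 13.32 to 13.98, and the proximal tubule transporter Slc34a1 had 13.39 to 13.83. Median intensity per array ran from 51.99 to 86.08. All 5273 values of 0 lay in 1 array, replicate 3 of CsA 25 mg/kg at day 28. On 4 arrays the liver gene Alb had a level above 12. The Gapdh ratio (signal at the 3-prime end of the Gapdh transcript over that at its 5-prime end, in log2), a measure of RNA integrity and labelling, had means of 0.67 to 0.79 in 4 groups (vehicle and CsA 2.5 mg/kg at day 7, and each Rapa dose at day 1), and of 0.27 to 0.48 in the other 24. The hybridization controls were low and scattered in FK506 6 mg/kg (9.42 ± 1.00, SD, n = 5) and Rapa 1 mg/kg (9.94 ± 1.17, SD, n = 6) at day 28, and their means in the other groups ran from 10.63 to 11.20.

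Against the vehicle rats of the same day, the 8 genes gave 11 calls in 96 tests at the higher doses. This was 11.5% of the tests, beside 7.66% over all genes. At the lower doses they gave 2 calls in 96 tests, or 2.08%, beside 2.78% over all genes. Tgfb1 was higher under CsA 25 mg/kg and FK506 6 mg/kg at day 28, Ccn2 was higher under both Rapa doses at day 14 and under Rapa 10 mg/kg at day 28, and Bmp7 was lower under both Rapa doses at day 14. Tgfbr1 was higher under CsA 25 mg/kg at days 14 and 28 and under Rapa 10 mg/kg at day 28. At day 7, Ccn2 and Smad3 were lower under CsA 25 mg/kg, and Bmp7 was higher under FK506 6 mg/kg. Several of these calls were lost when a rat was left out or a choice of processing was changed, as given with each gene below. Comparisons within a day share the vehicle rats and are not independent of each other.

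**Figure D1:**
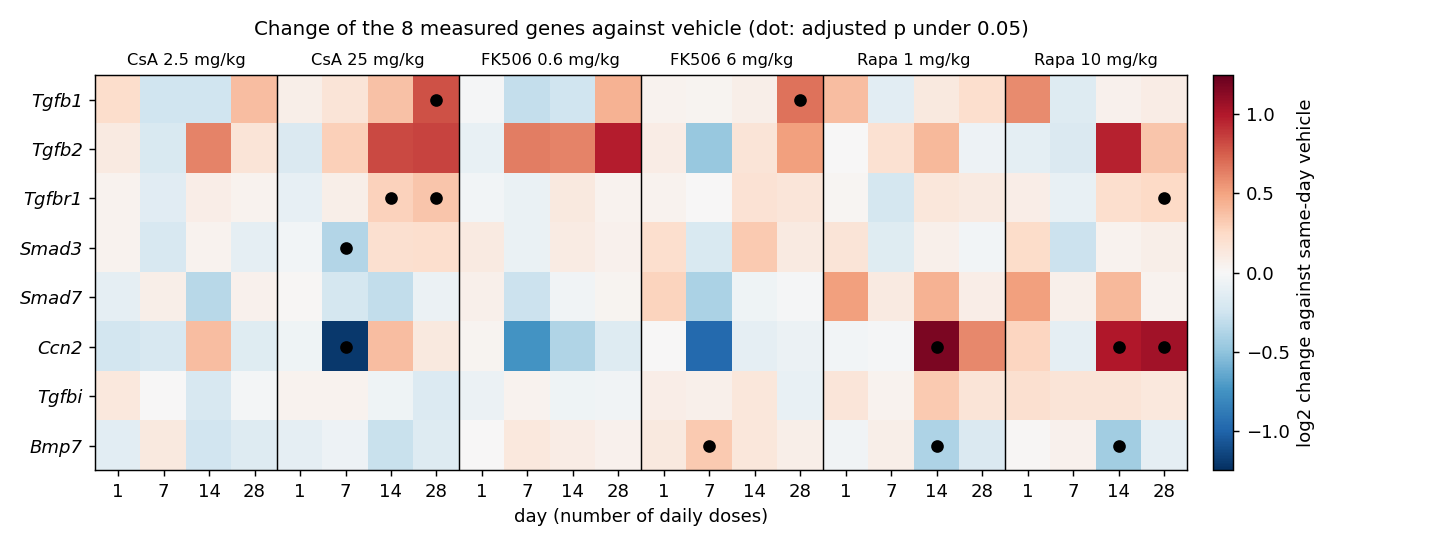
Log2 change of each of the 8 measured genes (rows) against the vehicle rats of the same day, for each drug and dose at days 1, 7, 14 and 28 (columns). Colour gives the change, and a dot marks an adjusted p under 0.05; the 13 dots lie at days 7, 14 and 28, with none at day 1.

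By comparison, CsA 25 mg/kg gave 2 calls of 8 at day 7 (3.97% of all genes were called), 1 at day 14 (7.89%) and 2 at day 28 (21.1%). FK506 6 mg/kg gave 1 call at day 7 (3.2%), 0 at day 14 (2.68%) and 1 at day 28 (16%). Rapa 10 mg/kg gave 0 at day 7 (7.3%), 2 at day 14 (10.5%) and 2 at day 28 (15.7%). Rapa 1 mg/kg gave 2 at day 14 (9.05%), and by limma the lower doses of CsA and FK506 gave 0 in 32 tests each, of which 3 each had an unadjusted p under 0.05. At day 1 limma called 0 of the 8 genes under CsA 25 mg/kg (0.675% of all genes), FK506 6 mg/kg (0.0281%) and Rapa 10 mg/kg (2.82%), where 0, 1 and 3 of the 8 had an unadjusted p under 0.05. This was 1 of the 8 for FK506 6 mg/kg at day 14 and 1 for Rapa 10 mg/kg at day 7. At day 28, 2 of 8 is close to the share of all genes called under CsA 25 mg/kg, and 1 of 8 to that under FK506 6 mg/kg. The median change of the 8 genes at day 28 was 0.16 under CsA 25 mg/kg, 0.09 under FK506 6 mg/kg and 0.11 under Rapa 10 mg/kg, beside medians of 0.01, 0.01 and -0.01 over all genes.

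Tgfb1, the main TGF-beta isoform of injured kidney, was measured by the probe set 1370082_at. After 28 doses of CsA 25 mg/kg the rats had levels of 7.72, 7.38, 7.59 and 7.86. The 5 vehicle rats had 5.93, 6.76, 6.71, 7.32 and 7.46. Of the CsA rats 3 lay above every vehicle rat and the lowest lay between the 2 highest vehicle rats, so the groups overlapped. The change was 0.80 (SE 0.19), or 1.74-fold, with an adjusted p of 0.00111. It stayed called without each rat in turn (0.58 to 0.96), and without the array that held the zeros it was 0.82 with an adjusted p of 0.00317.

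After 28 doses of FK506 6 mg/kg the levels of Tgfb1 were 7.70, 7.21, 7.10, 7.93 and 7.62. Here 3 of the 5 rats lay above the highest vehicle rat, and the groups overlapped. The change was 0.68 (SE 0.18), or 1.60-fold, with an adjusted p of 0.0051. The call rested on the lowest vehicle rat, replicate 1: without it the change was 0.45 with an adjusted p of 0.0836. With the hybridization controls, which were low in this group, as a covariate the change was 0.46 with an adjusted p of 0.207.

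Under Rapa 10 mg/kg at day 28 the 6 rats had Tgfb1 levels from 6.64 to 7.35 with a median of 6.88, and the change of 0.09 (95% interval -0.26 to 0.43) was not called. All 4 CsA 25 mg/kg rats lay above all 6 Rapa 10 mg/kg rats, a difference of 0.72 (SE 0.19, adjusted p 0.00273). FK506 6 mg/kg differed from Rapa 10 mg/kg by 0.59 (SE 0.17, adjusted p 0.0156), with overlapping groups. This difference was 0.35 (adjusted p 0.457) with the hybridization controls as a covariate, 0.54 (adjusted p 0.0505) without FK506 replicate 1 and 0.49 (adjusted p 0.0895) without replicate 4. CsA 25 mg/kg and FK506 6 mg/kg themselves were not called different in Tgfb1 at any day, with a difference at day 28 of 0.13 (95% interval -0.26 to 0.51). After 1 dose of Rapa 10 mg/kg the rats had 7.27, 7.51, 7.55 and 7.38, all above the vehicle rats at 7.04, 6.98, 6.52 and 6.81. The change of 0.59 (SE 0.20) had an adjusted p of 0.0986. The Gapdh ratio was also high in this Rapa group (0.74). With this ratio as a covariate Tgfb1 was again not called, and the number called over all genes went from 301 to 7. At earlier days Tgfb1 under CsA 25 mg/kg was 0.07 above vehicle at day 1, 0.16 at day 7 and 0.37 at day 14, with no call (adjusted p 0.998, 0.778 and 0.279), and the change of this effect from day 1 to day 28 was 0.74 (SE 0.28, adjusted p 0.106).

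In whole kidney, RNA of a gene from more cells cannot be told apart from more RNA per cell. Macrophage and myeloid markers also moved at day 28. Of 15 tested genes of a list of 17, 14 were higher under CsA 25 mg/kg and 9 under FK506 6 mg/kg, with medians of 0.93 and 0.64. The mean level of the 17 genes ran from 7.40 to 7.90 in vehicle rats, from 8.27 to 9.22 under CsA 25 mg/kg and from 7.86 to 8.55 under FK506 6 mg/kg. Injured-tubule markers moved too, with 7 of 10 tested genes higher under each drug. Their mean level ran from 8.09 to 8.56 in vehicle rats, from 9.71 to 10.37 under CsA 25 mg/kg and from 9.26 to 10.49 under FK506 6 mg/kg. The part of these cells in the Tgfb1 values was not tested. The macrophage list was also higher under CsA 25 mg/kg at day 7 (8 of 15 genes, median 0.79) and at day 14 (10 of 15, median 0.89). At day 1 the mean level of this list already ran from 7.95 to 8.06 under CsA 25 mg/kg, beside 7.46 to 7.79 in vehicle rats. Against the vehicle rats of the same day Tgfb1 was not called at days 1, 7 and 14. Against the mean of the 4 vehicle groups Tgfb1 was called at day 14, at 0.46 (adjusted p 0.0404). This control was added after seeing the data, and it mixes vehicle rats of other days with those of the same day. Drug and day cannot be told apart in a call that rests on it, here and below. Other lists moved at day 28 as well: 3 of 5 tested distal convoluted tubule genes were lower under each drug, with mean levels of 7.04 to 7.20 under CsA 25 mg/kg and 7.00 to 7.25 under FK506 6 mg/kg, beside 7.84 to 8.47 in vehicle rats. Of 8 tested endothelial genes 3 were lower under CsA 25 mg/kg, with mean levels of 8.24 to 8.84 beside 9.06 to 9.27. The values of these lists at day 28 also stand beside the Tgfbr1 and Smad3 results of CsA 25 mg/kg below.

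**Figure D2:**
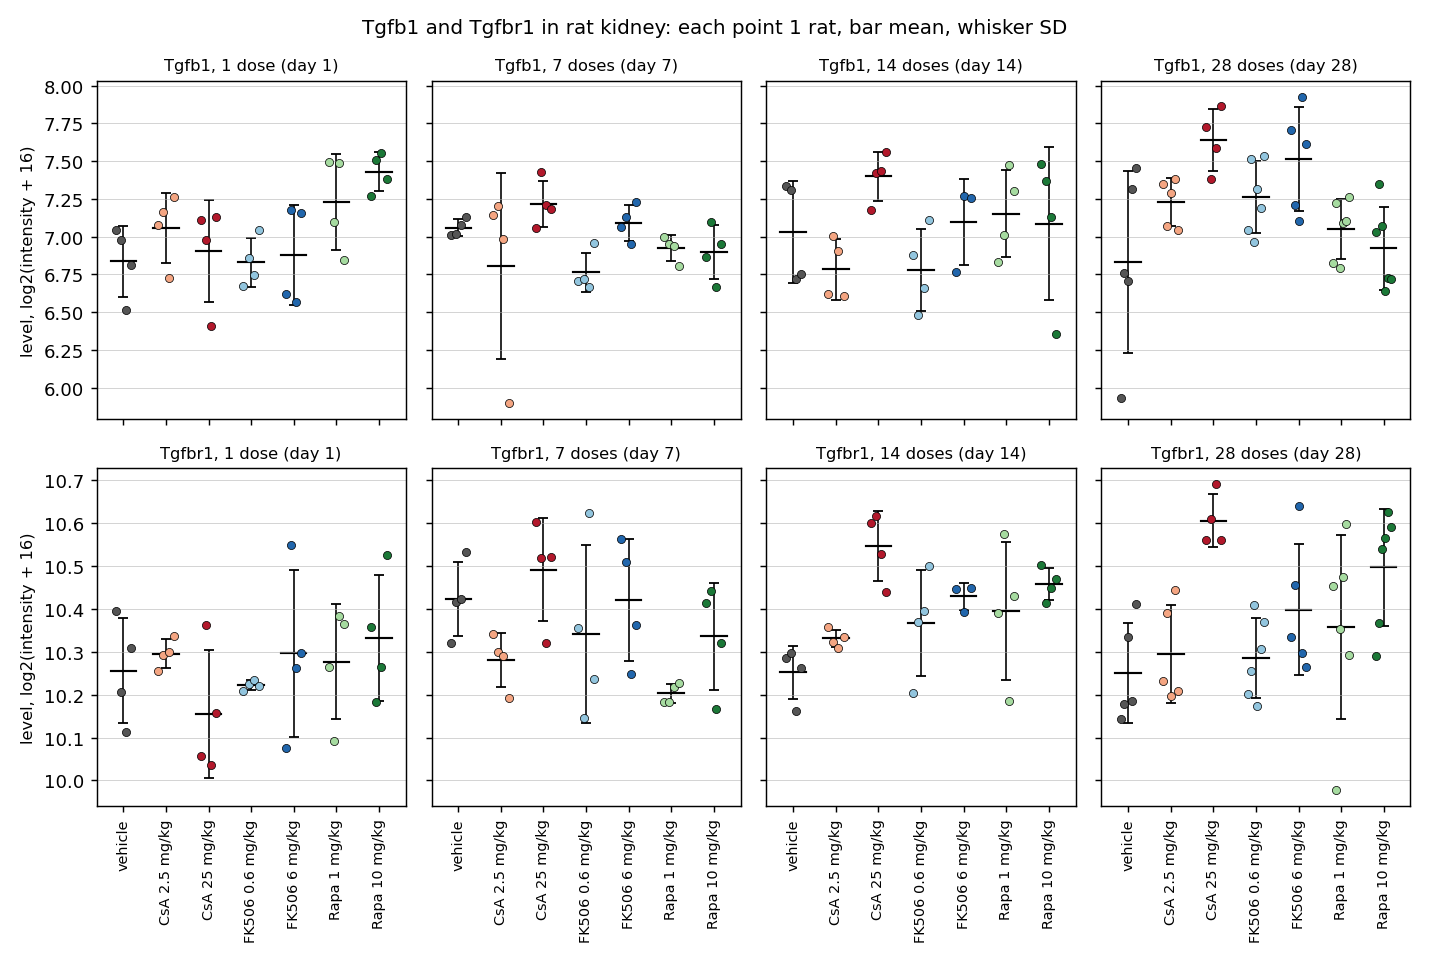
Levels of Tgfb1 (top) and Tgfbr1 (bottom), log2(intensity + 16) on the vertical axis, for each rat by treatment at days 1, 7, 14 and 28; horizontal bars are group means and whiskers are SD. At day 28 the CsA 25 mg/kg rats have Tgfb1 levels of 7.38 to 7.86 and Tgfbr1 levels of 10.56 to 10.69, and all 5 vehicle rats lie below 10.56 in Tgfbr1.

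Tgfb2, the isoform with a wider role in development, was not called by limma in any of the 54 comparisons (5 had an unadjusted p under 0.05), and its rats scattered most among the 8 genes. Its standard deviation within groups was 0.61, beside a median of 0.20 over all genes. Vehicle rats had levels of 7.20, 5.55, 5.14 and 6.53 at day 14, and of 6.92, 5.78, 7.46, 5.87 and 7.59 at day 28. Rats given CsA 25 mg/kg had 7.71, 7.07, 7.86 and 7.62 at day 28, within or just above the vehicle range. The change was 0.84 (SE 0.41, 95% interval 0.03 to 1.65, adjusted p 0.136). A second, dimmer probe set of the gene, 1388011_a_at, was called in this comparison, at 0.73 (SE 0.24, adjusted p 0.0224), and in none of the other 53. The highest mean of any group was 7.70 ± 0.68 (SD, n = 6) under FK506 0.6 mg/kg at day 28, a change of 0.98 with an adjusted p of 0.114, and of 0.99 with an adjusted p of 0.0164 against the mean of the 4 vehicle groups.

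Tgfbr1, the type I receptor kinase, changed little in size and varied little between rats, with a standard deviation within groups of 0.12. After 14 doses of CsA 25 mg/kg its levels were 10.60, 10.61, 10.53 and 10.44, against 10.28, 10.30, 10.16 and 10.26 in vehicle rats. After 28 doses they were 10.56, 10.61, 10.69 and 10.56, against 10.14, 10.18, 10.33, 10.19 and 10.41. At each of these days every CsA rat lay above every vehicle rat. The changes were 0.29 (SE 0.09, adjusted p 0.0236) at day 14 and 0.35 (SE 0.08, adjusted p 0.000898) at day 28, which are 1.23-fold and 1.28-fold.

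The day 28 call held when each rat was left out in turn (0.33 to 0.39), while the day 14 call was lost without vehicle replicate 3 (0.26, adjusted p 0.0787) or CsA replicate 1 (0.28, adjusted p 0.0625) or 2 (0.27, adjusted p 0.0755). The doses of CsA differed: at day 28 the 4 rats at 25 mg/kg lay above all 5 rats at 2.5 mg/kg, which had 10.20 to 10.44, a difference of 0.31 (SE 0.08, adjusted p 0.00429). Between these doses 2 of the 8 genes were called at day 28, beside 18.4% of all genes. The effect also differed between days, at -0.10 at day 1 and 0.35 at day 28, a difference of 0.46 (SE 0.12, adjusted p 0.014; 1 of the 8 genes was called, beside 4.97% of all genes). Without the 4 arrays with high Alb, of which 2 were in the CsA 25 mg/kg group at day 1, this difference was 0.40 with an adjusted p of 0.108.

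Under Rapa 10 mg/kg at day 28 the 6 rats had Tgfbr1 levels from 10.29 to 10.63 with a median of 10.55, and 4 of them lay above the highest vehicle rat. The change was 0.25 (SE 0.08, adjusted p 0.0152), and 0.22 with an adjusted p of 0.0568 without vehicle replicate 1. FK506 6 mg/kg at day 28 had 10.34, 10.46, 10.64, 10.30 and 10.26, overlapping vehicle, and its change of 0.15 (95% interval -0.01 to 0.30, adjusted p 0.209) was not called. No pair of drugs was called different in Tgfbr1 at any day. These values come from the probe set 1376636_at, and a dimmer probe set, 1369504_at, with a mean level of 5.64, gave -0.22 and 0.23 for CsA 25 mg/kg at days 14 and 28 with no call. That dimmer probe set was called instead under Rapa 10 mg/kg at day 1 (-1.13, adjusted p 0.014) and day 7 (1.07, adjusted p 0.0162), for CsA 25 mg/kg against Rapa 10 mg/kg at day 1 (1.03, adjusted p 0.0234), and for vehicle at day 7 against day 1 (-1.03, adjusted p 0.0243).

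Smad3, the receptor-activated transcription factor, was called against vehicle in 1 of 24 comparisons, lower under CsA 25 mg/kg at day 7. The CsA rats had 8.58, 8.53, 8.33 and 8.51 and the vehicle rats 8.93, 8.76, 8.85 and 8.88, with no overlap. The change was -0.37 (SE 0.09, adjusted p 0.00999). Vehicle at day 7 was itself the highest vehicle group: at day 1 the vehicle rats had 8.57, 8.45, 8.33 and 8.42, all below the day 7 rats. Vehicle at day 7 exceeded vehicle at day 1 by 0.41 (SE 0.09, adjusted p 0.00379), one of 2 calls among the 8 genes, beside 3.89% of all genes.

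The Gapdh ratio was 0.73 ± 0.17 (SD, n = 4) in vehicle at day 7, 0.33 ± 0.04 (SD, n = 4) at day 1 and 0.43 ± 0.06 (SD, n = 4) in CsA 25 mg/kg at day 7. With this ratio as a covariate, the Smad3 changes were -0.26 (adjusted p 0.124) for CsA and 0.28 (adjusted p 0.136) for vehicle over time. Against the mean of the 4 vehicle groups, CsA 25 mg/kg at day 7 differed by -0.14 in Smad3 (adjusted p 0.352). Against same-day vehicle the change was -0.31 (adjusted p 0.0608) without CsA replicate 3.

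At later days Smad3 stood above vehicle with no call: under FK506 6 mg/kg at day 14 the 3 rats had 8.90, 8.94 and 8.83 and the vehicle rats 8.65, 8.53, 8.52 and 8.52, with no overlap (0.33, SE 0.10, adjusted p 0.0502). Against the mean of the 4 vehicle groups Smad3 was called higher in this group (0.26, adjusted p 0.0398) and under CsA 25 mg/kg at day 28 (0.24, adjusted p 0.0107). Under CsA 25 mg/kg at day 28 Smad3 was 0.21 above vehicle (adjusted p 0.0732) and 0.32 above CsA 2.5 mg/kg (SE 0.09, adjusted p 0.00492). This second difference was 0.25 with an adjusted p of 0.0604 without replicate 4 of the higher dose. The other Smad3 probe set, 1369528_at, was close to the lowest levels of the array, at a mean of 4.66, and was called in none of the 54 comparisons.

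Smad7, the inhibitory Smad that TGF-beta itself induces, was not called against vehicle by limma in any of 24 comparisons (5 had an unadjusted p under 0.05). Against the mean of the 4 vehicle groups it was called higher at day 14 under Rapa 10 mg/kg (0.45, adjusted p 0.0261) and 1 mg/kg (0.48, adjusted p 0.0187). It separated CsA from Rapa at day 14, where rats given CsA 25 mg/kg had 7.77, 7.76, 7.80 and 7.85 and rats given Rapa 10 mg/kg had 8.09, 8.69, 8.54 and 8.72. The groups did not overlap, and the vehicle rats, at 7.96 to 8.27, reached into the Rapa range. CsA was lower, with a difference of -0.72 (SE 0.19, adjusted p 0.00401), the only call among the 8 genes in this comparison, beside 14.7% of all genes. The other 2 Smad7 probe sets, with mean levels of 5.91 and 5.74, each gave -0.26 here with no call.

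**Figure D3:**
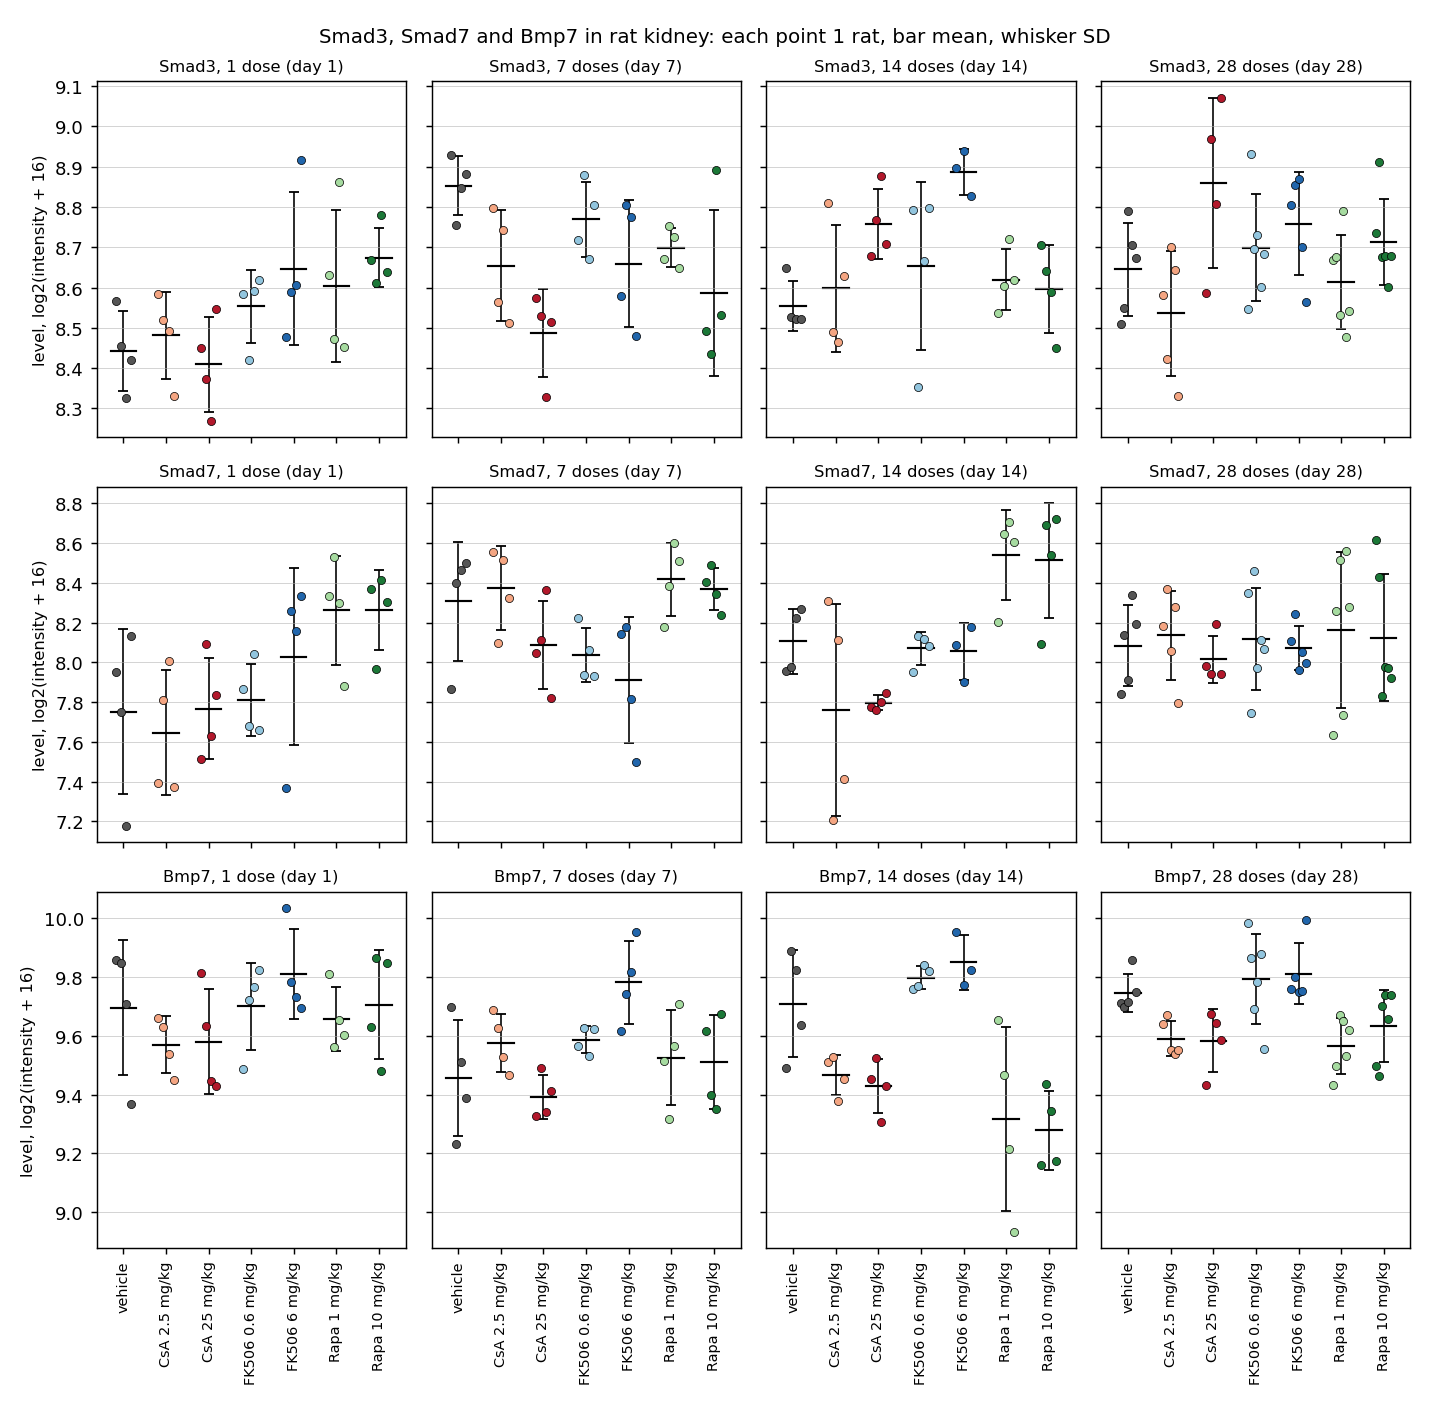
Levels of Smad3, Smad7 and Bmp7 (rows), log2(intensity + 16) on the vertical axis, for each rat by treatment at days 1, 7, 14 and 28; horizontal bars are group means and whiskers are SD. At day 14 the Bmp7 levels of the Rapa 10 mg/kg rats, 9.16 to 9.44, lie below those of the FK506 6 mg/kg rats, 9.77 to 9.96, and at day 7 the vehicle rats have the highest Smad3 mean of that day.

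Ccn2, the matricellular protein also called connective tissue growth factor and a classic target of Smad and of TEAD transcription factors, varied over the widest range of the 8 genes. Its group means ran from 10.21 for CsA 2.5 mg/kg at day 1 upward over a range of 1.79, with Rapa 1 mg/kg at day 14 the highest. Differences between the 28 groups held 60.8% of its variance over rats, beside a median of 38.1% over the genes tested. The Ccn2 promoter is shown with that of Tgfb1 beside it. The part of promoter sequence in the changes of these genes was not tested. The windows run from 250 bases before to 50 bases after the start site in RefSeq (GRCr8), which held a window for 9 of the 10 genes, Bmp7 being the exception. Capitals mark GGAATG, the core bound by TEAD factors, and CAGAC, a Smad-binding core, searched on each strand. The Ccn2 window is chr1:22624565-22624864 on the minus strand and the Tgfb1 window chr1:90324062-90324361 on the plus strand.
Ccn2: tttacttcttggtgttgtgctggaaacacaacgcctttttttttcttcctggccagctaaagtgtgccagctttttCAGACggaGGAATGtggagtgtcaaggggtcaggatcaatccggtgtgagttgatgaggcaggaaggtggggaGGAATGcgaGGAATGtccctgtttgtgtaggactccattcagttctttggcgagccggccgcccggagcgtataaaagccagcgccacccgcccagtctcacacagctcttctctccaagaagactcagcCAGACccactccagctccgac
Tgfb1: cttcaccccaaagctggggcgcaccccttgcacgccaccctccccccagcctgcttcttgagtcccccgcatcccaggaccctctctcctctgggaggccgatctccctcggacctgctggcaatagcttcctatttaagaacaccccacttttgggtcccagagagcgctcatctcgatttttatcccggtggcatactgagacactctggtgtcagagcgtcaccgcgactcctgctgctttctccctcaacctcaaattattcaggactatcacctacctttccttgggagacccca
The Ccn2 window held 3 matches to GGAATG and 2 to CAGAC, with no overlap between them. Of 33465 promoter windows of this length, 14.2% held GGAATG at least once and 0.0956% held it 3 times or more, and 50.1% held CAGAC. The Tgfb1 window held neither GGAATG nor CAGAC, and the same was true of the windows of Tgfb2, Tgfbr1, Tgfbr2, Tgfbi, Smad3 and Smad7. The Thbs1 window held GGAATG 1 time and no CAGAC. None of these windows, nor that of Ccn2, held TGANTCA, the AP-1 site, which 7.33% of windows held. These are matches of letters, and the arrays do not measure binding.

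Under Rapa, Ccn2 was higher after 14 doses. Rats given 10 mg/kg had 11.58, 11.39, 12.23 and 12.10, rats given 1 mg/kg had 11.45, 12.25, 12.47 and 11.82, and vehicle rats had 10.11, 10.91, 10.86 and 11.41. The lower dose did not overlap vehicle, and at the higher dose only the lowest rat, at 11.39, lay below the highest vehicle rat, at 11.41. The changes were 1.00 (SE 0.32, 2.00-fold, adjusted p 0.0293) at 10 mg/kg and 1.18 (SE 0.32, 2.26-fold, adjusted p 0.0104) at 1 mg/kg. Without vehicle replicate 1, the lowest, they were 0.76 (adjusted p 0.146) and 0.94 (adjusted p 0.0691). The call at 10 mg/kg was also lost without vehicle replicate 2 (1.03, adjusted p 0.0518) or 3 (1.01, adjusted p 0.0562) and without Rapa replicate 3 (0.87, adjusted p 0.115) or 4 (0.91, adjusted p 0.0854). The call at 1 mg/kg was lost without Rapa replicate 3 (1.02, adjusted p 0.0534).

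After 28 doses of Rapa 10 mg/kg the 6 rats had Ccn2 levels from 11.01 to 12.38 with a median of 11.73, and the vehicle rats had 10.46, 10.84, 11.17, 10.80 and 10.08. Of the Rapa rats 5 lay above every vehicle rat. The change was 1.05 (SE 0.27, 2.07-fold, adjusted p 0.00349), and it stayed called without each vehicle rat in turn (0.90 to 1.18). At 1 mg/kg the 6 rats ran from 10.52 to 11.99 with a median of 11.33, overlapping vehicle, with no call. At day 1 no Rapa group was called, and at day 7 the Rapa 10 mg/kg rats, at 11.61, 11.10, 11.32 and 11.37, lay within the range of vehicle.

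**Figure D4:**
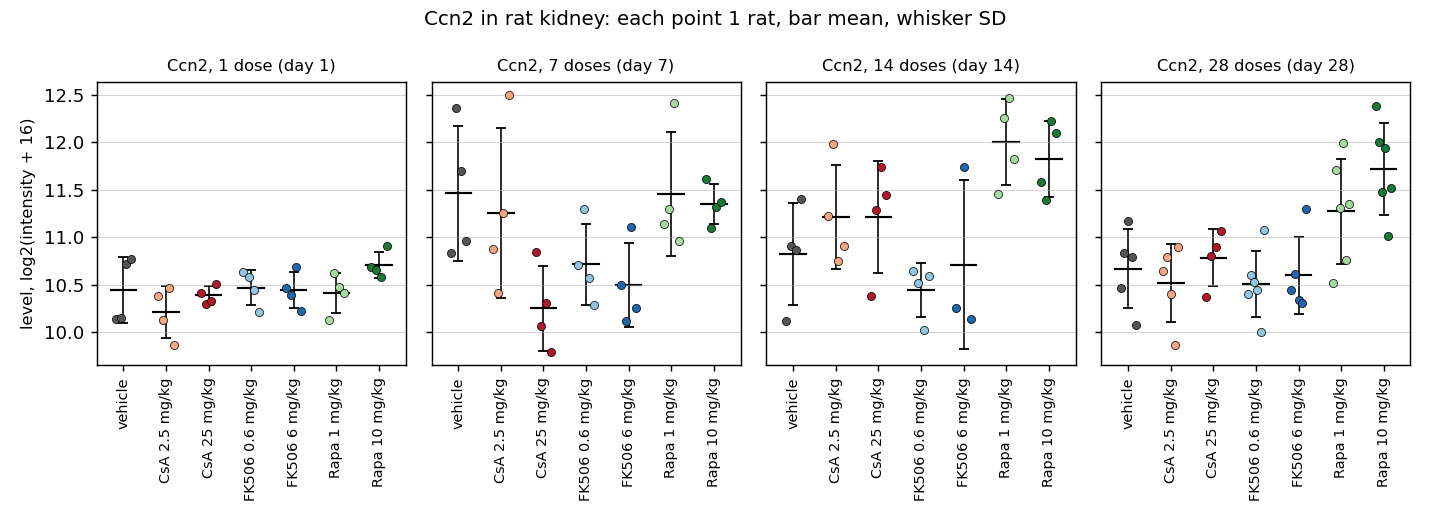
Level of Ccn2, log2(intensity + 16) on the vertical axis, for each rat by treatment at days 1, 7, 14 and 28; horizontal bars are group means and whiskers are SD. The Rapa means stand highest of the 7 treatments at days 14 and 28 (at 10 mg/kg, 11.82 and 11.72), and the vehicle rats reach 12.36 at day 7.

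Ccn2 was not called higher under CsA or FK506 at any day. At day 7 CsA 25 mg/kg rats had 10.85, 10.06, 10.30 and 9.79, and vehicle rats had 10.84, 12.36, 11.70 and 10.96. The highest CsA rat lay just above the lowest vehicle rat, and the other 3 lay below all vehicle rats. CsA was lower, with a difference of -1.21 (SE 0.32, 2.31-fold, adjusted p 0.0142). FK506 6 mg/kg at day 7, at 10.50, 10.12, 11.11 and 10.25, differed from vehicle by -0.97 (SE 0.32, adjusted p 0.0768).

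The vehicle rats of day 7 stood apart in Ccn2 as in Smad3: they were 1.02 (SE 0.32, adjusted p 0.0498) above vehicle at day 1, whose rats had 10.14, 10.15, 10.71 and 10.77 and did not overlap them. This call was lost in 6 of 8 fits that left out 1 rat, with changes of 0.72 to 1.23. Against the mean of the 4 vehicle groups, CsA 25 mg/kg at day 7 differed in Ccn2 by -0.60 (adjusted p 0.192). Against same-day vehicle the call was also lost without vehicle replicate 2 (-0.91, adjusted p 0.104) or 3 (-1.13, adjusted p 0.0587) and without CsA replicate 2 (-1.15, adjusted p 0.0526) or 4 (-1.06, adjusted p 0.0852). The Rapa changes were called against that mean too, at 0.97 (adjusted p 0.00355) for 10 mg/kg and 1.15 (adjusted p 0.000556) for 1 mg/kg at day 14, and 0.87 (adjusted p 0.00119) for 10 mg/kg at day 28. With the Gapdh ratio as a covariate, the Ccn2 changes were 1.33 (adjusted p 0.0316) for vehicle at day 7 against day 1 and -1.44 (adjusted p 0.00683) for CsA 25 mg/kg at day 7.

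Set directly against Rapa 10 mg/kg, Ccn2 was lower under CsA 25 mg/kg at day 7 (-1.10, SE 0.32, adjusted p 0.0163) and day 28 (-0.94, SE 0.29, adjusted p 0.0142). It was lower under FK506 6 mg/kg at day 14 (-1.11, SE 0.35, adjusted p 0.027) and day 28 (-1.12, SE 0.27, adjusted p 0.00279). At day 7 the CsA and Rapa rats did not overlap. At day 28 the FK506 rats had 10.44, 10.61, 10.34, 10.31 and 11.30, of which 4 lay below every Rapa rat. The day 28 difference for FK506 held without each FK506 rat in turn (-1.29 to -1.05), and the one for CsA was lost without its replicate 1 (-0.80, adjusted p 0.0679). The day 7 difference was lost without CsA replicate 2 or 4 or Rapa replicate 1 (-0.95 to -1.04), and the day 14 difference without FK506 replicate 1 or 3 or Rapa replicate 3 or 4 (-0.83 to -1.02). These comparisons gave 1 call among the 8 genes for CsA against Rapa at day 7 (9.43% of all genes) and 3 at day 28 (19.9%), and 2 for FK506 against Rapa at day 14 (9.41%) and 2 at day 28 (11%).

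Markers of other cell types gave these values beside Ccn2 and Bmp7 under Rapa. Of 12 tested fibroblast and pericyte genes, 0 were higher and 2 lower under Rapa 10 mg/kg at day 14, and 1 was higher and 3 lower at day 28. The mean level of the 13 genes of this list ran from 7.63 to 8.09 at day 14 and from 7.71 to 7.99 at day 28 in these rats, beside 7.79 to 8.55 and 7.71 to 7.92 in vehicle rats. Of the macrophage and myeloid genes, 7 of 15 were lower under Rapa 10 mg/kg and 6 under 1 mg/kg at day 14, and the mean level of the list ran from 7.00 to 7.43 at 10 mg/kg, beside 7.61 to 8.08 in vehicle rats. Of 8 proximal tubule genes 2 were lower at each Rapa dose at day 14. Their mean level ran from 12.26 to 12.36 at 10 mg/kg and from 11.82 to 12.40 at 1 mg/kg, beside 12.37 to 12.58 in vehicle rats. Of 5 thick ascending limb genes 1 was higher at 10 mg/kg and 0 at 1 mg/kg, with mean levels of 11.40 to 11.52 and 11.23 to 11.70 beside 11.19 to 11.42. Podocyte markers had mean levels of 8.94 to 9.14 at 10 mg/kg and 8.88 to 9.29 at 1 mg/kg beside 8.67 to 8.98, and collecting duct markers 9.54 to 9.80 and 9.67 to 10.11 beside 9.53 to 9.83. The part of these cells in the Ccn2 and Bmp7 values of day 14 was not tested.

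Tgfbi, a secreted matrix protein named for its induction by TGF-beta, was not called against vehicle by limma in any of 24 comparisons (1 had an unadjusted p under 0.05). Its widest change against vehicle was 0.33 (SE 0.12, adjusted p 0.0789), under Rapa 1 mg/kg at day 14, where the rats had 10.54, 10.19, 10.27 and 10.60 and vehicle rats 10.29, 9.86, 9.96 and 10.18. Against the mean of the 4 vehicle groups it was called, at 0.34 (adjusted p 0.0113). Its single call was between drugs at day 28: CsA 25 mg/kg, at 9.98, 9.92, 9.92 and 9.99, lay below all 6 Rapa 10 mg/kg rats, at 10.07 to 10.51. The difference was -0.30 (SE 0.11, adjusted p 0.0478), and the call was lost when any 1 of the CsA rats was left out (-0.31 to -0.29), without quantile normalization (-0.29, adjusted p 0.0607) and without the dim filter (adjusted p 0.0616).

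Bmp7, the secreted ligand of the BMP branch, fell under Rapa at day 14. Rats given 10 mg/kg had 9.16, 9.44, 9.34 and 9.17, all below the vehicle rats at 9.49, 9.89, 9.82 and 9.64. Rats given 1 mg/kg had 9.65, 9.47, 9.22 and 8.93, of which 3 lay below all vehicle rats. The changes were -0.43 (SE 0.10, adjusted p 0.00166) and -0.39 (SE 0.10, adjusted p 0.00561). The first was called without each rat in turn (-0.50 to -0.37), and the second was -0.26 with an adjusted p of 0.109 without Rapa replicate 4. At day 28 the Rapa 10 mg/kg rats overlapped vehicle and Bmp7 was not called (-0.11, adjusted p 0.415).

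Bmp7 also separated the calcineurin inhibitors from each other at days 7 and 14, but was not called between them at days 1 and 28. At day 7 the CsA 25 mg/kg rats had 9.33, 9.49, 9.34 and 9.41 and the FK506 6 mg/kg rats 9.62, 9.74, 9.82 and 9.95, and at day 14 they had 9.45, 9.53, 9.31 and 9.43 against 9.96, 9.77 and 9.82. At neither day did the groups overlap. CsA was lower, with a difference of -0.39 (SE 0.10, adjusted p 0.0238) at day 7, the only one of the 8 genes called, beside 0.938% of all genes. At day 14 it was lower, with a difference of -0.42 (SE 0.11, adjusted p 0.0154), again the only one of the 8, beside 1.97%. With the arrays of the compared days alone neither difference was called (adjusted p 0.0625 at day 7 and 0.102 at day 14). The day 7 call was lost in 5 of 8 fits that left out 1 rat (replicates 1, 3 and 4 of CsA, and 3 and 4 of FK506; -0.40 to -0.33), and the day 14 call in 2 of 7 (CsA replicate 3, -0.38, and FK506 replicate 1, -0.37).

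FK506 6 mg/kg exceeded Rapa 10 mg/kg in Bmp7 at day 14 by 0.57 (SE 0.11, adjusted p 7.98e-05), with no overlap and with the call kept without each rat in turn. Against vehicle, FK506 6 mg/kg was higher at day 7 by 0.33 (SE 0.10, adjusted p 0.0484), where vehicle had 9.70, 9.23, 9.51 and 9.39. This call was lost in 6 of 8 fits that left out 1 rat (replicates 2, 3 and 4 of each group) and with the Gapdh ratio as a covariate (0.31, adjusted p 0.104), and the change was 0.13 (adjusted p 0.469) against the mean of the 4 vehicle groups. Against that mean CsA 25 mg/kg was called lower in Bmp7 at day 7 (-0.26, adjusted p 0.0373) and day 14 (-0.22, adjusted p 0.042), where same-day vehicle gave -0.06 (adjusted p 0.827) and -0.28 (adjusted p 0.0642) with no call. Of 5 tested distal convoluted tubule markers, 3 were lower under CsA 25 mg/kg at days 7 and 14, 3 and 4 were lower under FK506 6 mg/kg at these days, and 1 was higher under Rapa 10 mg/kg at day 14.

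Other genes of the pathway were counted on 5 lists. The hybridization controls were low in FK506 6 mg/kg at day 28. With them as a covariate, the number called over all genes against vehicle there went from 1708 to 723. Their part in the FK506 values of these lists, and of the cell type markers above, was not tested. Of 17 tested ligands, latency proteins and activators, 2 were higher and 2 lower under CsA 25 mg/kg at day 28 (median 0.20, beside 0.01 over all genes), a share near the 21.1% of all genes called. They included Inhbb, an activin subunit, at 1.26 (SE 0.32, adjusted p 0.00175), Ltbp4, which holds latent TGF-beta in the matrix, at 0.76 (SE 0.14, adjusted p 1.97e-05), and Itgav, a subunit of integrins that release it, at -1.17 (SE 0.39, adjusted p 0.0195). Ltbp4 was also higher under FK506 6 mg/kg (0.65, adjusted p 0.000152) and Rapa 10 mg/kg (0.68, adjusted p 3.65e-05) at day 28, where the list gave 2 higher and 0 lower, and 1 higher and 2 lower, shares near the 16% and 15.7% of all genes called. Among 9 tested receptors and co-receptors the only call at day 28 under the higher doses was Bmpr1a, a BMP receptor, which was higher under FK506 6 mg/kg (0.31, adjusted p 0.0462) and Rapa 10 mg/kg (0.47, adjusted p 0.000823).

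Of 16 tested Smads and regulators, 5 were higher and 1 lower under CsA 25 mg/kg at day 28, and 4 higher and 1 lower under FK506 6 mg/kg, beside 21.1% and 16% of all genes called. Tgif1, a repressor that binds Smads, had the widest change, at 1.53 (SE 0.19, adjusted p 2.26e-09) under CsA and 1.24 (SE 0.18, adjusted p 3.25e-07) under FK506. Under Rapa 10 mg/kg 1 of the 16 was higher, beside 15.7% of all genes called. Of 13 tested genes of the BMP branch, 1 was higher and 2 lower under CsA 25 mg/kg at day 28, a share near the 21.1% of all genes called, among them Bmp4 at -0.70 (SE 0.12, adjusted p 7.51e-06) and Id4, a BMP-induced inhibitor of transcription factors, at -2.10 (SE 0.44, adjusted p 0.000221).

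Of 24 tested matrix and other TGF-beta induced genes, 9 were higher and 1 lower under CsA 25 mg/kg at day 28 (median 0.24, with 21.1% of all genes called), and 6 higher and 1 lower under FK506 6 mg/kg (median 0.16, with 16% called). In vehicle rats 0 of these genes were higher and 6 lower at day 28 against day 1 (median -0.42, beside -0.01 over all genes). Over the 3 comparisons of vehicle over time together, 2.11% of all genes were called. With 1 rat left out at a time, 88 to 181 of all genes were called in vehicle at day 28 against day 1. Against same-day vehicle, Timp1, an inhibitor of matrix proteases, was higher by 1.68 (SE 0.21, adjusted p 1.69e-09) under CsA and 1.40 (SE 0.20, adjusted p 7.3e-08) under FK506. Fn1, which encodes fibronectin, was higher by 0.91 (SE 0.19, adjusted p 0.000203) and 0.64 (SE 0.18, adjusted p 0.00782). Under Rapa 10 mg/kg at day 14, where Ccn2 was higher, 1 of the 24 was higher and 7 lower (median -0.27, with 10.5% of all genes called). The fibrillar collagen genes Col1a1, Col1a2 and Col3a1 were lower, with differences of -1.34 (SE 0.30, adjusted p 0.000986), -1.38 (SE 0.20, adjusted p 4.9e-07) and -1.20 (SE 0.24, adjusted p 0.000251), while Lox, a collagen cross-linking enzyme, was higher by 1.05 (SE 0.28, adjusted p 0.00749). At day 28 the counts under Rapa 10 mg/kg were 4 higher and 4 lower (median 0.00, with 15.7% called).

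Across the 28 group means, Ccn2 correlated with Smad7 at r = 0.63 and with Bmp7 at r = -0.62, and Tgfbr1 with Smad3 at 0.55 and with Tgfb1 at 0.54. Tgfb1 and Ccn2 correlated at -0.07. The genes with group means most like those of Ccn2 were Herpud1 (r = 0.91), Pim3 (0.88) and Hipk1 (0.87). Those most like Tgfb1 were Rnf145 (0.82), Vasp (0.82) and C11h3orf70 (0.80), and those most like Tgfbr1 were Pak2 (0.83), Rpn1 (0.81) and Rps23 (0.79). Bmp7 was most like Naprt (0.82), Naglt1 (0.80) and Zfyve21 (0.79), Smad3 like Kdm3a (0.81), Errfi1 (0.78) and Mab21l3 (0.77), and Smad7 like Hnrnpl (0.82), Polr2a (0.81) and Epas1 (0.81). The nearest genes of Tgfbi were Tmpo (0.78), Scd2 (0.73) and Hnrnpr (0.73), and those of Tgfb2 were Nr2c1 (0.71), Haus1 (0.69) and Lsm8 (0.69). These values describe 28 means of the same arrays, which share any difference in array quality between groups.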

How the data were processed

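The authors measured kidney RNA of 120 rats on Affymetrix Rat 230 2.0 arrays, 1 array per rat, after one-cycle biotin labelling, per the labels. The deposited values are probe set intensities on a linear scale, from 0 to 30646; how the authors summarized and scaled them is not given in the sources used here. The mean of each array, trimmed by 2% at each end, ran from 232.9 to 250.1. An offset of 16 was added, log2 taken and arrays quantile normalized. Of 31099 probe sets, 57 were controls, 20826 named 1 gene, 436 several and 9780 none; 1 probe set per gene was kept and the 3554 dimmest genes were left out. With limma 3.58.1 in R 4.3.3, a separate mean for each group was estimated from all arrays together (92 residual and 2.96 prior degrees of freedom), with two-sided tests and Benjamini-Hochberg adjustment over 10663 genes in each of 54 comparisons. The fit was tested on simulated data. Precision is set by the number of rats per group. Nothing says how rats were housed or handled in batches, and p-values measure the spread between these rats.

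The 10 genes and the lists were chosen with earlier results of these data known. All 10 genes were to be named, with up to 4 called genes per list and comparison, the markers beside a result, and the 3 genes most correlated with each. Alternatives were no quantile normalization, an offset of 1, no dim filter, all probe sets apart, an intensity trend, arrays of the compared days alone, no arrays with Alb above 12, the Gapdh ratio or the hybridization controls as a covariate, other probe sets, and each rat left out in groups of up to 5. The mean of the 4 vehicle groups as control was added after seeing the data.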

Additional observations from a re-analysis of the deposited data

Results flagged for a closer look

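In 9 of 216 checks, each of 1 gene in 1 group (4.17%, where chance flags about 1 in 20), 1 rat lay far from the others of its group. The same rats enter the checks of every gene, so the checks are not independent. Tgfb1 was 5.90 in replicate 4 of CsA 2.5 mg/kg at day 7, with the others at 6.99 to 7.21. Tgfb2 was 5.93 in replicate 1 of CsA 25 mg/kg at day 14 (others 7.15 to 7.35) and 4.90 in replicate 4 of FK506 0.6 mg/kg at day 14 (others 7.20 to 7.46). Tgfbi was 10.03 in replicate 1 of CsA 2.5 mg/kg at day 1 (others 10.21 to 10.23) and 9.66 in replicate 2 of CsA 2.5 mg/kg at day 28 (others 10.12 to 10.30). Smad3 was 8.65 in replicate 1 of vehicle at day 14 (others 8.52 to 8.53). Smad7 was 7.86 in replicate 1 of vehicle at day 7 (others 8.40 to 8.50), and 8.19 in replicate 3 of CsA 25 mg/kg at day 28, the array with the zeros (others 7.94 to 7.98). Bmp7 was 10.00 in replicate 5 of FK506 6 mg/kg at day 28 (others 9.75 to 9.80).

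The effect of CsA 25 mg/kg on Tgfbr1 differed between day 28 and day 1 by 0.46, 1 call among 24 such tests. This was 4.17% of the tests, beside 4.6% over all genes. Without the arrays with high Alb the difference was 0.40, with an adjusted p of 0.108 in limma.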

How the results depend on the processing

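Leaving out rats or changing 1 choice gave 739 values of single genes, of which 629 kept direction and side of the threshold, 79 lost a call, 30 gained one and 1 changed sign (Bmp7, CsA 25 mg/kg against vehicle at day 7, -0.06, and -0.14 to 0.02 without 1 rat, not called, but -0.26 with an adjusted p of 0.0373 against the mean of all vehicle groups). With dimmer probe sets the sign changed for Smad3 under CsA 25 mg/kg at day 7 (0.64) and in vehicle at day 7 against day 1 (-0.41), for Tgfbr1 under CsA 25 mg/kg at day 14 (-0.22), and for Smad7 under Rapa 1 mg/kg at day 14 (-0.06), none of them called. The cause was not tested. The 739 values cover only pairs of gene and comparison called in the main fit or under an alternative other than a left-out rat. A pair not called in the main fit entered through a gained call and had no call to lose.

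In the main fit the 8 genes gave 11 calls in 96 tests between drugs (11.5%, beside 7.36% over all genes). They gave 2 calls in 96 tests of higher against lower dose (2.08%, beside 2.42%). For vehicle over time they gave 2 calls in 24 tests (8.33%, beside 2.11%). The following counts of called genes moved by over 1.5 times. Arrays of the compared days alone, which leave fewer rats for the spread, gave 1 for CsA 25 mg/kg at day 7, 0 for FK506 6 mg/kg at day 7, 1 for Rapa 10 mg/kg at days 14 and 28, and 6 between drugs. The Gapdh covariate gave 1 for CsA 25 mg/kg at day 7, 1 for FK506 6 mg/kg at day 14, 5 for higher against lower dose and 1 for vehicle over time. The hybridization covariate gave 0 for FK506 6 mg/kg at day 28 and 1 for vehicle over time. With no dim filter, or all probe sets apart, FK506 6 mg/kg at day 7 gave 0. For FK506 6 mg/kg at day 14, an offset of 1 and an intensity trend each gave 1. Vehicle over time gave 1 with an offset of 1, without the dim filter and without arrays with high Alb, and the last gave 0 for the change of effect over time. The mean of all vehicle groups as control gave 1 for CsA 25 mg/kg at day 7, 3 at day 14, 0 and 1 for FK506 6 mg/kg at days 7 and 14, and 5 for the lower doses. With this control the number called over all genes went from 841 to 1487 for CsA 25 mg/kg at day 14. For FK506 6 mg/kg the number over all genes went from 341 to 188 at day 7 and from 286 to 606 at day 14.

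Leaving out 1 rat at a time gave counts of 1 to 2 for CsA 25 mg/kg at day 7, 0 to 2 at day 14 and 2 to 3 at day 28. It gave 0 to 2 for FK506 6 mg/kg at day 7 and 0 to 1 at day 28, and 0 to 1, 1 to 2 and 1 to 2 for Rapa 10 mg/kg at days 7, 14 and 28. It gave 1 to 3 for the lower doses, 9 to 12 between drugs, 1 to 3 between doses, 1 to 3 for vehicle over time and 1 to 2 for the change of effect. Over all genes, the hybridization covariate moved the number called from 1708 to 723 for FK506 6 mg/kg against vehicle at day 28 and from 1168 to 374 against Rapa 10 mg/kg, and the Gapdh covariate moved it from 301 to 7 for Rapa 10 mg/kg at day 1 and from 415 to 269 for vehicle at day 7 against day 1. Without arrays with high Alb it went from 72 to 5 for CsA 25 mg/kg at day 1. Arrays of the compared days alone moved it by over 1.5 times in 6 of 23 comparisons, the mean of all vehicle groups in 6 of 13 and all probe sets apart, which tests more probes, in 10 of 23. Groups of 6 rats had no rat left out. No paired analysis was possible because the replicate numbers follow the order of deposit and different rats were killed at each day.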
